A study of Mus musculus with 2 samples.

Results

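Malat1, Neat1, Gas5 and Snhg1, which make abundant RNAs that are not translated, were followed in the Msl1 and Nsl1 ChIP-seq maps of mouse embryonic stem cells (mESCs). They are 4 of 37273 annotated genes on the nuclear chromosomes. They were chosen by name as abundant noncoding RNA genes and selected on the Msl1 and Nsl1 levels along them in these same libraries, which were known at the time. Their levels are therefore a description and carry no test. All cells were wild type mESCs of the E14 label, passage P26, on the 129P2/OlaHsd background. The study made 1 library with an antibody against Msl1 and 1 with an antibody against Nsl1, with different library kits, so the antibody cannot be told apart from the library, and there was no replicate and no p-value. No input library was used here.

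Msl1 and Nsl1 are scaffold subunits of the MSL and NSL complexes, which share the histone acetyltransferase Mof. Mof acetylates lysine 16 of histone H4. Malat1 RNA stays in the nucleus and collects at nuclear speckles. Neat1 RNA is the scaffold of paraspeckles, and its long isoform is needed to build them. Gas5 and Snhg1 are spliced RNAs whose introns release box C/D small nucleolar RNAs (snoRNAs), which guide methylation of ribosomal RNA.

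On mm9, Malat1 lies on chr19:5795690-5802671, minus strand, 6982 bases in 1 exon. Neat1 lies on chr19:5824708-5845478, minus strand, 20771 bases in 1 exon for its long isoform. Its TSS is 42807 bases upstream of that of Malat1. Snhg1 lies on chr19:8797986-8800932, plus strand, 2947 bases from the TSS to the end. Gas5 was followed from 162965297 to 162968670 of chromosome 1, plus strand, 3374 bases. Its annotated gene starts 744 bases further upstream, at 162964553, and has 25 transcripts. The annotation places 9 snoRNAs inside Gas5 (SNORD74, SNORD75, SNORD24, SNORD44, SNORD78, SNORD79, SNORD77, Snord47 and SNORD81) and 8 inside Snhg1 (SNORD25 to SNORD31 and Snord22). Those of Gas5 begin 228 bases after the TSS with SNORD74 and end 3217 bases after it with SNORD81, and those of Snhg1 span 500 to 2495 bases after its TSS. So both hosts carry snoRNAs along most of their length.

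The 300 bases around the TSSs of Malat1, Gas5 and Snhg1 (250 upstream, 50 downstream, mm9, strand of the gene) are shown because the Msl1 level of these genes changed at or next to this point. Capitals mark the unbroken run of C and T that begins at the TSS.
Malat1, chr19:5802622-5802921, minus strand: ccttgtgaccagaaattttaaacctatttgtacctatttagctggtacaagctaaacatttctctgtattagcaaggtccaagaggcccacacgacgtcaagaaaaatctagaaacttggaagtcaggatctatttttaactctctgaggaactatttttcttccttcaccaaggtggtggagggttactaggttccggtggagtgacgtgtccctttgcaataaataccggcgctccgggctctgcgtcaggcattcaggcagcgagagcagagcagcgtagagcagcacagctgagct
Gas5, chr1:162965047-162965346, plus strand: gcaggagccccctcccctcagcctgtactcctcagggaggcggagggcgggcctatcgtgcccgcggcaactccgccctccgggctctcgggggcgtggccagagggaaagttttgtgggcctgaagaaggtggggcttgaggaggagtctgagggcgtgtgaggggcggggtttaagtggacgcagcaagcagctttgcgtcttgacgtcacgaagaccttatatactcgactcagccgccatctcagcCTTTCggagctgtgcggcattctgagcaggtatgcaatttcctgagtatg
Snhg1, chr19:8797736-8798035, plus strand: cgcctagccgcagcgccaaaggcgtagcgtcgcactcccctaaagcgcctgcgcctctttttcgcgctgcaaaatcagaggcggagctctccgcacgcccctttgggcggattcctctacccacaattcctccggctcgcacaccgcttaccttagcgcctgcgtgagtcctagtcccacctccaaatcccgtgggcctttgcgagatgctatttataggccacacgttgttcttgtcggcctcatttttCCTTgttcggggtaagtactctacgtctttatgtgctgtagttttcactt
RNA starts were not measured, and Gas5 has 25 annotated transcripts. Transcripts with a terminal oligopyrimidine tract start with a C followed by pyrimidines. At the annotated TSSs followed here, Gas5 and Snhg1 began with a C and a run of 5 and 4 pyrimidines. Runs at least as long stood at 3.80% and 5.92% of the 22285 TSSs compared, and 15.4% of these TSSs were a C. Malat1 had no pyrimidine at the annotated TSS. The number of CG pairs was 10 at Malat1, 19 at Gas5 and 25 at Snhg1, with a median of 13 over all 22285 windows. TATAAA, searched on both strands, was present at Snhg1 and in 10.7% of all windows. CCAAT, searched on both strands, was in none of these 3 windows and in 37.2% of all. Of the features searched, 3 were shared by both snoRNA hosts and not by Malat1. They were the C at the TSS, the pyrimidine run that it begins, and more CG pairs than the median of 13.

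Of the nuclear reads, 19483142 of the Msl1 library and 24883001 of the Nsl1 library had a position and strand of their own, and only these were counted. Each read was moved to the middle of its fragment, and the level of a window is its reads per base over those of the same library 20 to 100 kb away on both sides of the gene. A level of 1 is therefore the local background. Intervals are exact 95% Poisson intervals that cover counting error only, since reads carry no molecular identifiers. The local background was 18.2 Msl1 and 18.3 Nsl1 reads per kb around Malat1, 21.9 and 17.6 around Neat1, 10.9 and 13.2 around Gas5, and 16.5 and 15.4 around Snhg1. The tested stem cell genes were Pou5f1, Nanog, Sox2, Zfp42, Tdgf1 and Esrrb. All but Esrrb, 5 of 6, had an Msl1 level of at least 2 from 500 to 2000 bases downstream of the TSS. The same held for 1 of 5 fibroblast genes (Twist2) and for 3 of 3 tested neural progenitor genes (Pax6, Nes and Olig2), and for 34.1% of all genes tested. The medians were 6.64, 1.40 and 2.60 in the same order, against 1.52 over all genes. As the neural progenitor genes reached 2 as well, these counts do not identify the cells. Dppa5a and Hes5 are shorter than 2 kb and were not tested.

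**Figure D1:**
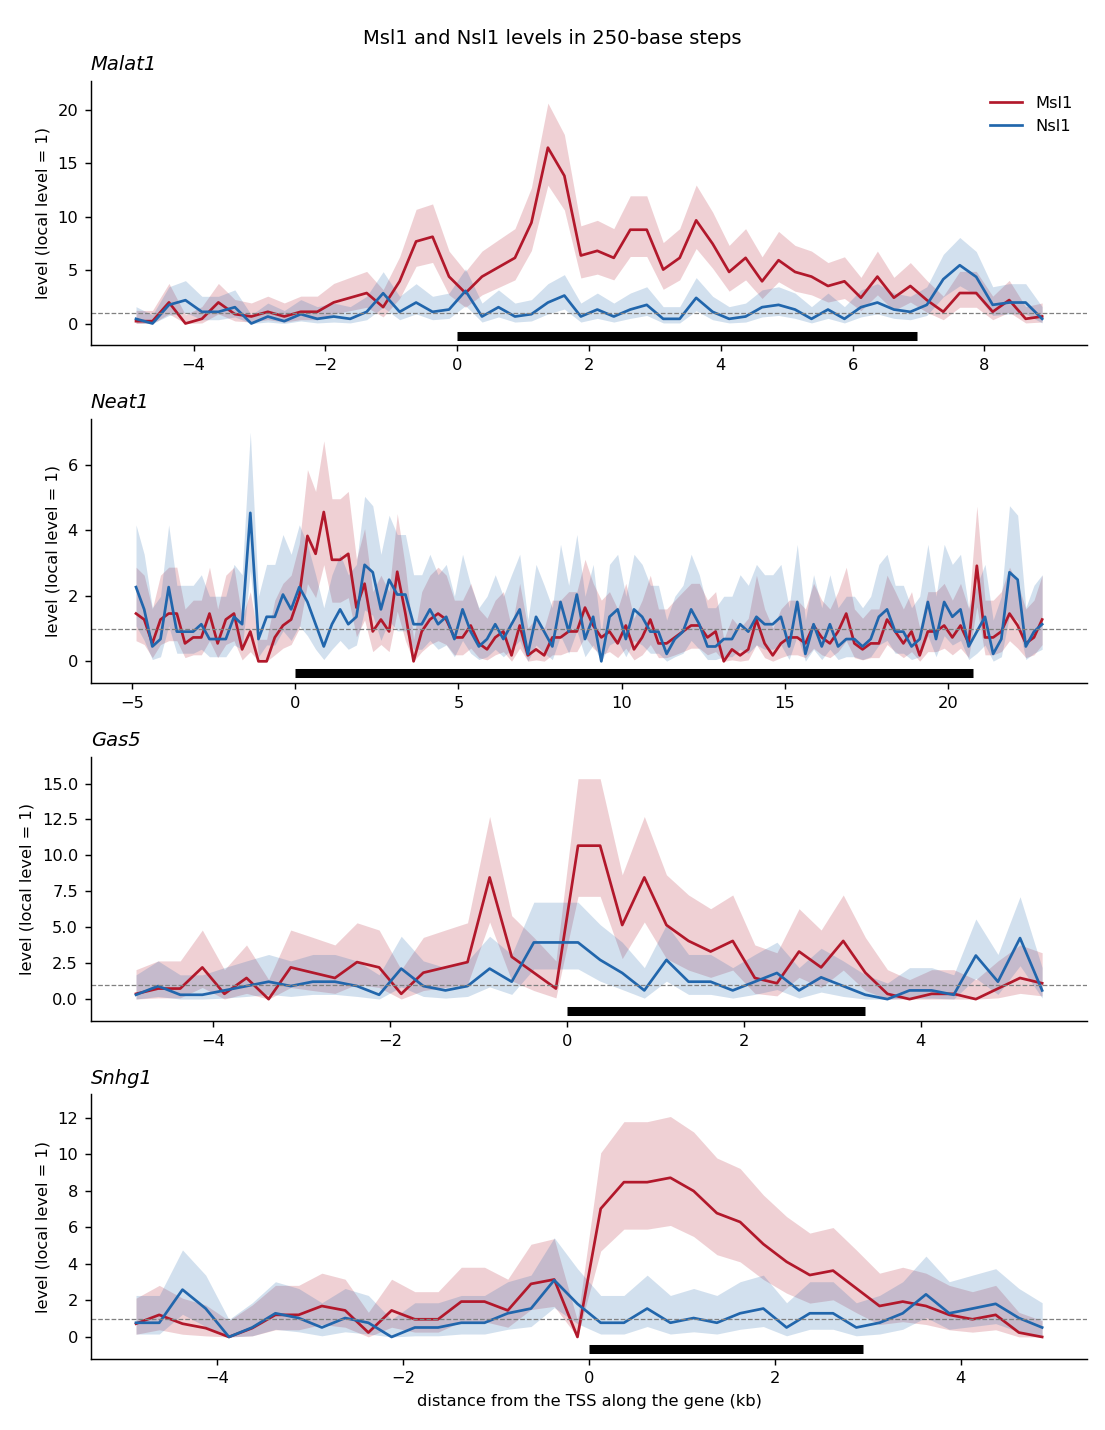
Level of Msl1 (red) and Nsl1 (blue) in 250-base steps against the distance from the TSS in kb, with exact 95% Poisson intervals as bands. The black bar is the gene and the dashed line is the local level. Msl1 ran above the local level over all of Malat1 and Snhg1, most of Gas5 and the start of Neat1, while Nsl1 was mostly near it inside the genes, apart from steps such as the first of Gas5 (3.94) and of Malat1 (3.05).

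Msl1 covered Malat1 from end to end. Within 500 bases of the TSS there were 90 Msl1 reads, a level of 4.93 (3.97 to 6.07). From 500 to 2000 bases downstream there were 262 reads and the level was 9.58 (8.45 to 10.8), rank 31 of 22285 genes. Over the whole body from 500 bases to the end, 758 reads gave a level of 6.41 (5.96 to 6.89), rank 29. The signal was still raised at the end, with 61 reads and a level of 3.34 (2.56 to 4.30) in the last 1 kb, and it was 1.70 (1.30 to 2.18) in the 2 kb past the end. Upstream, from 5 kb to 1 kb before the TSS, it was 1.19 (0.96 to 1.47). The 1 kb just before the TSS held 110 reads, a level of 6.03 (4.96 to 7.27), so the raised region began upstream of the gene.

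In steps of 250 bases, all 28 steps of Malat1 had an Msl1 level of at least 2, with a lowest of 2.41, a median of 5.59 and a highest of 16.4 (12.9 to 20.6, 75 reads). The unbroken stretch above 2 had 33 steps and ran from 1000 bases upstream of the TSS to 7250 bases after it. A maximum stood on either side of the TSS. The higher lay 1250 to 1500 bases downstream, and the other lay 500 to 250 bases upstream with 37 reads and a level of 8.12 (5.71 to 11.2). Between them the first 250 bases of the gene held 13 reads, a level of 2.85 (1.52 to 4.88), so Msl1 dipped at the TSS itself. Smaller rises followed inside the gene, with 40 reads (8.77, 6.27 to 11.9) in each of the steps from 2500 to 3000 bases and 44 reads (9.65, 7.01 to 13.0) from 3500 to 3750 bases.

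The step with the most Msl1 reads is shown because it is the highest of all steps in the 4 genes. It is chr19:5801172-5801421 of mm9, minus strand, inside the single exon of Malat1, with 53.6% G and C.
Malat1, 1250 to 1500 bases after the TSS: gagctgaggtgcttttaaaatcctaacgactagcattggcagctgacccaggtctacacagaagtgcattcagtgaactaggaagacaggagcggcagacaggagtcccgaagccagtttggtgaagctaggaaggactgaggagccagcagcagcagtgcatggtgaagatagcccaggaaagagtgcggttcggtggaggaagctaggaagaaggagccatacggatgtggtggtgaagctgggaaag

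The study placed 1 of its Msl1 qPCR amplicons at this locus, and its primers were matched to mm9. The amplicon is chr19:5802953-5803094, 142 bases long, and lies 282 to 423 bases upstream of the annotated TSS, in the upstream maximum and not in the gene. It is shown on the strand of Malat1 with both primer sites in capitals.
Malat1 amplicon: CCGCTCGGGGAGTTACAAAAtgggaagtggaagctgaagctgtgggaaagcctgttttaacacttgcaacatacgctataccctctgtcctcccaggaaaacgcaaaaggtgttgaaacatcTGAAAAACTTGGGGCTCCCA
It held 19 Msl1 reads, a level of 7.34 (4.42 to 11.5), and 4 Nsl1 reads, a level of 1.54 (0.418 to 3.93). Each primer occurred once on chromosome 19.

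Nsl1 showed little of this pattern at Malat1. It had 28 reads and a level of 1.53 (1.01 to 2.21) within 500 bases of the TSS, where the median of all genes was 1.75. It had 38 reads and a level of 1.38 (0.98 to 1.90) from 500 to 2000 bases downstream, and 142 reads and a level of 1.19 (1.01 to 1.41) over the body. Only 3 of the 28 steps reached 2, the first of them at the TSS with 14 reads and a level of 3.05. The others began at 1500 bases (12 reads, 2.62, 1.35 to 4.57) and 3500 bases (11 reads, 2.40, 1.20 to 4.29). Msl1 was high in both, at 13.8 and 9.65. Without an input library, whether both libraries share a background there was not tested. The highest Nsl1 level of the locus lay outside the gene, past its 3′ end. In the 2 kb past the end there were 101 Nsl1 reads, a level of 2.75 (2.24 to 3.35), rank 290 of 22285 genes. They sat mostly from 250 to 1000 bases past the end, where 67 Nsl1 reads gave a level of 4.87 (3.77 to 6.18) and 30 Msl1 reads a level of 2.19 (1.48 to 3.13). No other gene is annotated at this place. A level of at least 2 past the end was found for Nsl1 at 3.8% of all genes tested.

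Neat1 had lower Msl1 levels than Malat1, and they were raised mainly near its start. Within 500 bases of the TSS there were 45 Msl1 reads, a level of 2.05 (1.5 to 2.75), near the median of 1.92 over all genes. From 500 to 2000 bases downstream there were 104 reads and the level was 3.16 (2.58 to 3.83), rank 2793. Over the body the 442 reads gave 0.99 (0.90 to 1.09), and the last 1 kb gave 0.91 (0.56 to 1.41). The level upstream was 0.97 (0.77 to 1.20) and that past the end 1.16 (0.87 to 1.53). Of the 84 steps of the gene 10 reached 2, and the longest stretch of them, 7 steps, ran from the TSS to 1750 bases. The highest step, 750 to 1000 bases after the TSS, held 25 reads, a level of 4.56 (2.95 to 6.73). Outside the first 2250 bases 2 steps reached 2, that from 3000 to 3250 bases with 15 reads (2.74, 1.53 to 4.51) and the last, which begins at 20750 bases and runs past the end of the gene, with 16 reads (2.92, 1.67 to 4.74).

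The short isoform of Neat1 ends 3172 bases after the TSS, at 5842307 of chromosome 19, and the long isoform runs on for 17599 bases. The part that both isoforms share held 176 Msl1 reads, a level of 2.53 (2.17 to 2.93), and the part that only the long isoform has held 298, a level of 0.77 (0.69 to 0.87). Per base the first was 3.28 times the second (2.70 to 3.96). The local level of Neat1 contains Malat1, so the value under 1 in the second part is not read as a fall under the background. Nsl1 differed less, with 98 reads and a level of 1.75 (1.42 to 2.13) in the shared part against 315 reads and 1.01 (0.91 to 1.13) in the rest, 1.73 times (1.36 to 2.17). In the 2 kb before and after the end of the short isoform the Msl1 level was 1.98 (1.59 to 2.45) and 1.07 (0.79 to 1.43). The change did not lie at this end. The Msl1 steps beginning at 2250, 2500 and 2750 bases were already at 0.91, 1.28 and 0.91. The step beginning at 3000 bases, which spans the end, was at 2.74 (1.53 to 4.51). The split at the end of the short isoform was chosen after the step values had been seen.

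Malat1 lies in the local level of Neat1, where it and 2 kb on both sides gave 28.6% of the Msl1 reads in 6.86% of the bases. Without it the Msl1 level of Neat1 was 4.12 from 500 to 2000 bases downstream, 2.68 within 500 bases of the TSS and 1.30 over the body, and its Nsl1 level within 500 bases of the TSS was 2.01. Nsl1 at Neat1 reached 1.93 (1.33 to 2.69, 34 reads) within 500 bases of the TSS and 1.13 (0.76 to 1.62, 30 reads) downstream. Its highest step lay 1500 to 1250 bases upstream of the TSS, with 20 reads and a level of 4.53 (2.77 to 7.0), where Msl1 had 5 reads and a level of 0.91. From 2000 to 3500 bases after the TSS, 5 of 6 Nsl1 steps were between 2.04 and 2.95, each with 9 to 13 reads.

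Gas5 had the highest values of both proteins within 500 bases of the TSS among the 4 genes, though its Msl1 interval overlaps those of Malat1 and Snhg1 and its Nsl1 interval that of Neat1. Msl1 had 65 reads and a level of 5.98 (4.62 to 7.63) within 500 bases of the TSS, and 82 reads and a level of 5.03 (4.0 to 6.25) from 500 to 2000 bases downstream, rank 637. The body gave 3.84 (3.19 to 4.60, 120 reads, rank 203) and the last 1 kb 2.95 (2.02 to 4.16). Past the end Msl1 fell under the local level, with 10 reads in 2 kb and a level of 0.46 (0.22 to 0.85). The boundary at the 3′ end was the sharpest of the 4 genes by these window values. Of its 14 steps 11 reached 2, and the 2 steps from the TSS to 500 bases were the highest, each with 29 reads and a level of 10.7 (7.15 to 15.3).

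Nsl1 at Gas5 had 48 reads and a level of 3.64 (2.68 to 4.83) within 500 bases of the TSS, rank 4117 of 22285. This window also holds the TSS of Zbtb37, a gene that runs the other way. The window around the Zbtb37 TSS held 43 Nsl1 reads, a level of 3.38 (2.45 to 4.55), so the Nsl1 reads of the 2 starts cannot be told apart. The 3 steps in a row, from 500 bases upstream of the TSS to 250 bases after it, held 13 Nsl1 reads each, a level of 3.94. The level was 1.37 (0.90 to 1.99) from 500 to 2000 bases downstream, 1.27 (0.93 to 1.68) over the body and 1.06 (0.58 to 1.78) in the last 1 kb. A separate Nsl1 step 5000 to 5250 bases after the TSS, beyond the gene, held 14 reads (4.25, 2.32 to 7.13), which overlaps the interval at the promoter. If the TSS is put at the outer end of the annotated gene, 744 bases upstream, the Nsl1 level within 500 bases is 2.20 and the Msl1 level from 500 to 2000 bases downstream is 6.95.

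Snhg1 carried Msl1 along its whole length, like Malat1, and none of it between its TSS and that of its divergent neighbour. Msl1 had 77 reads and a level of 4.66 (3.68 to 5.83) within 500 bases of the TSS and 179 reads and a level of 7.22 (6.20 to 8.36) from 500 to 2000 bases downstream, rank 127. The body gave 5.74 (5.02 to 6.53, 232 reads, rank 44) and the last 1 kb 3.21 (2.40 to 4.20). Past the end the level was 1.24 (0.89 to 1.68), and upstream it was 1.04 (0.81 to 1.32). All 12 steps reached 2. The highest, 750 to 1000 bases after the TSS, had 36 reads and a level of 8.72 (6.11 to 12.1), and the steps then declined to 11 reads and 2.66 (1.33 to 4.77) at the end of the gene. The intervals of neighbouring steps overlapped along this decline.

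Nsl1 was near the local level along Snhg1, at 1.62 (1.05 to 2.39, 25 reads) within 500 bases of the TSS, 1.17 (0.77 to 1.70) downstream, 1.09 (0.78 to 1.47) over the body and 1.33 (0.95 to 1.8) past the end. None of its 12 steps reached 2, and the highest was 1.56. The highest Nsl1 step of the locus held 12 reads and lay 500 to 250 bases upstream, on the side of Slc3a2.

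**Figure D2:**
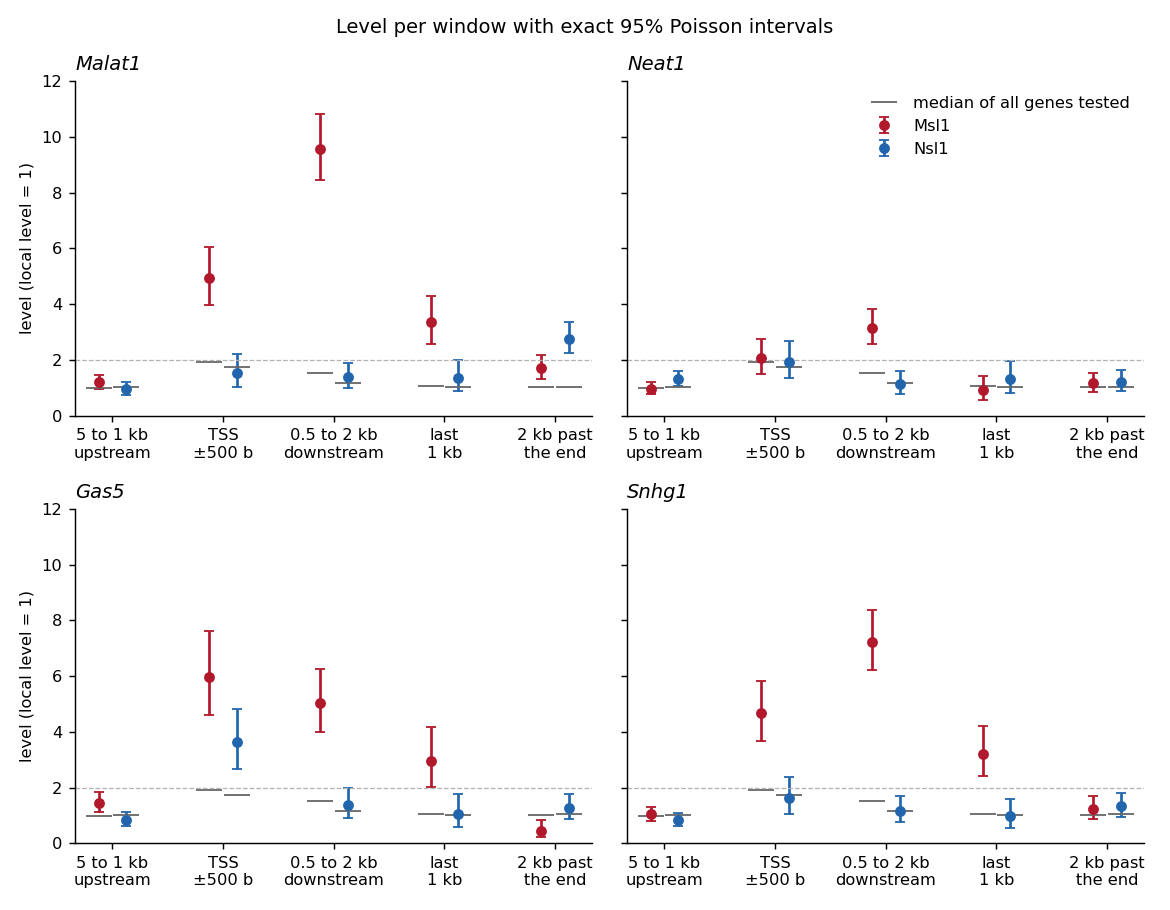
Level of Msl1 (red) and Nsl1 (blue) in 5 windows of each gene with exact 95% Poisson intervals. Grey dashes are the medians of the 22285 genes tested, and the dashed line marks a level of 2. The downstream window had the highest Msl1 level at Malat1, Neat1 and Snhg1 and the TSS window at Gas5, and the Nsl1 level exceeded 2 in 2 of the 20 windows.

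Gas5 and Snhg1 share their promoters with protein-coding genes that run the other way. Zbtb37, a zinc finger protein gene, starts 331 bases upstream of the TSS of Gas5, and Slc3a2, which encodes the heavy chain of the CD98 amino acid transporter, starts 127 bases upstream of that of Snhg1. The first 2 kb of Snhg1 held 243 Msl1 reads, a level of 7.36 (6.46 to 8.34), and the first 2 kb of Slc3a2 held 61, a level of 1.85 (1.41 to 2.37). The noncoding side thus had 3.98 times (3.0 to 5.37) the Msl1 reads. The first 2 kb of Gas5 held 140 Msl1 reads (6.44, 5.42 to 7.60) and that of Zbtb37 held 62 (2.85, 2.19 to 3.66), a ratio of 2.26 (1.66 to 3.10). These sides are separate only for the Gas5 TSS followed here. The annotated Gas5 gene starts at 162964553, inside the Zbtb37 side, and also covers the bases between the TSSs.

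Nsl1 was not higher on the noncoding side beyond counting error. Its reads were 33 and 35 on the Snhg1 and Slc3a2 sides, a ratio of 0.94 (0.57 to 1.56), and 49 and 40 on the Gas5 and Zbtb37 sides, a ratio of 1.23 (0.79 to 1.91). Between the TSSs Msl1 reads were few. The 330 bases between Gas5 and Zbtb37 held 2 Msl1 reads, a level of 0.56 (0.07 to 2.02), and 14 Nsl1 reads, a level of 3.22 (1.76 to 5.40). The 126 bases between Snhg1 and Slc3a2 held 0 Msl1 reads, which allows a level of up to 1.77, and 5 Nsl1 reads, a level of 2.57 (0.83 to 6.0). The ratio of Msl1 to Nsl1 was 0.18 (0.02 to 0.79) between Gas5 and Zbtb37, and between Snhg1 and Slc3a2 its upper bound was 1.39, so there no difference was detectable at this depth. A window of 2 kb on both sides of the Slc3a2 TSS held 298 Msl1 and 71 Nsl1 reads, so most of the Msl1 reads near this protein-coding start lay on the Snhg1 side.

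**Figure D3:**
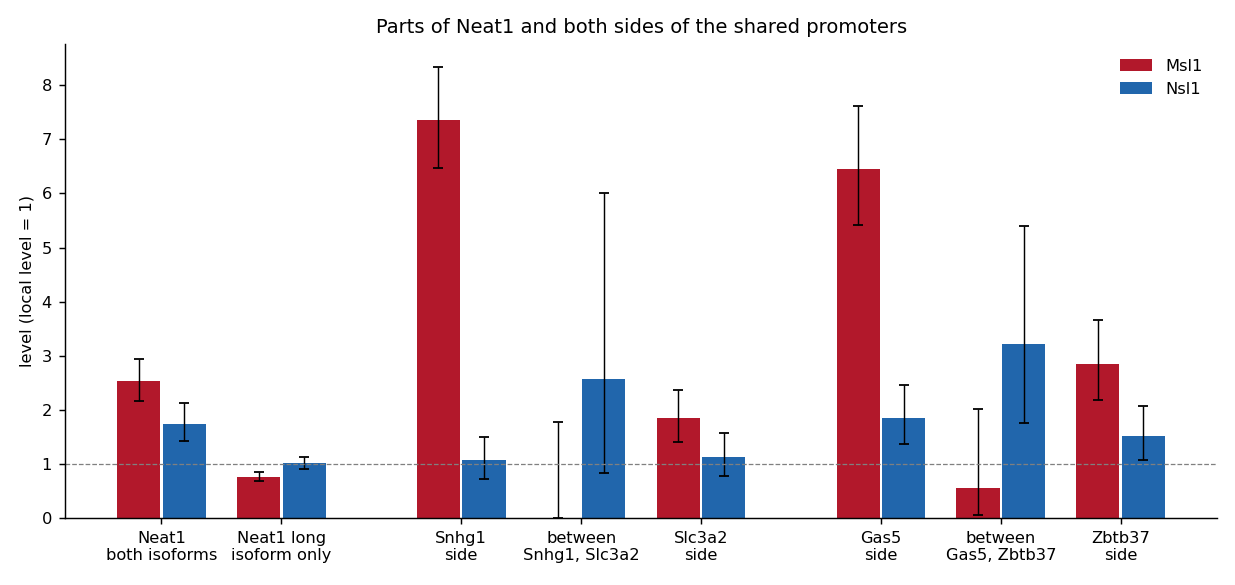
Level of Msl1 (red) and Nsl1 (blue) in parts of the loci, with exact 95% Poisson intervals. Neat1 is split at the end of its short isoform, and each shared promoter is split into 2 kb from either TSS and the bases between them. The annotated Gas5 gene starts further upstream, inside the Zbtb37 side. Msl1 was high on the Snhg1 and Gas5 sides and low between the TSSs.

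The ratio of Msl1 to Nsl1, per distinct read of each library, compares the libraries and not conditions. From 500 to 2000 bases downstream it was 8.81 (6.25 to 12.7) at Malat1, 8.47 (5.63 to 13.2) at Snhg1, 4.43 (2.93 to 6.89) at Neat1 and 3.88 (2.48 to 6.23) at Gas5, against a median of 1.47 over the 20154 genes with at least 20 reads there. The first and second of these did not differ beyond their intervals, nor did the third and the last. Over the body the ratio was 7.23 (5.17 to 10.3) at Snhg1, rank 17 of 21742 genes, 6.82 (5.69 to 8.21) at Malat1, rank 22, 3.19 (2.27 to 4.56) at Gas5, rank 249, and 1.43 (1.24 to 1.64) at Neat1, rank 5565. Within 500 bases of the TSS it was 4.11 (2.66 to 6.52) at Malat1, 3.93 (2.48 to 6.45) at Snhg1, 1.73 (1.17 to 2.57) at Gas5 and 1.69 (1.06 to 2.72) at Neat1, with a median of 1.06. In the 2 kb past the end of Gas5 the ratio was 0.39 (0.17 to 0.80), the lowest of the 24 ratios over the 6 windows of the 4 genes. Scaled by the local level instead, the ratio at Neat1 was 2.79 downstream of the TSS, 1.07 within 500 bases of it and 0.90 over the body. That local level contains Malat1, and without it the body levels were 1.30 (Msl1) and 1.15 (Nsl1), so no direction is read over the Neat1 body on this scale.

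The downstream window can also be set against the TSS window of the same library. For Msl1 this ratio per base was 1.94 (1.52 to 2.49) at Malat1, 1.55 (1.18 to 2.05) at Snhg1, 1.54 (1.08 to 2.24) at Neat1 and 0.84 (0.60 to 1.18) at Gas5. The median of the 11234 genes with at least 20 Msl1 reads at the TSS was 0.69. Ratios as high as that of Malat1 were found in 1.90% of these genes and as high as that of Gas5 in 33.4%. For Nsl1 the ratios were 0.90 (0.54 to 1.53), 0.72 (0.40 to 1.29), 0.59 (0.35 to 0.99) and 0.38 (0.22 to 0.61) in the same order of genes, with a median of 0.43 over 12040 genes. Msl1 was thus higher in the downstream window than in the TSS window at Malat1, Neat1 and Snhg1, with intervals above 1. At Gas5 the interval included 1. The TSS window also covers 500 bases upstream of the TSS. Inside the gene, the steps beginning at 0 and 250 bases had Msl1 levels of 7.02 and 8.48 at Snhg1, against 7.22 in the downstream window. They were 2.01 and 3.83 at Neat1, against 3.16, and 2.85 and 4.39 at Malat1, against 9.58.

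All 4 genes had an Msl1 level of at least 2 from 500 to 2000 bases downstream, as had 34.1% of the 22285 genes tested. All 4 had it within 500 bases of the TSS, where the share was 47.8%, and 3 of 4 over the body (not Neat1), where it was 7.48%. The body share differed with gene length and was 16.3% among the 6282 genes of 2 to 8 kb and 5.12% among the 4469 genes of 15 to 30 kb. For Nsl1, 1 of 4 genes (Gas5, whose window also holds the Zbtb37 TSS) reached 2 within 500 bases of the TSS, where 42.4% of all genes did. This count depends on the processing: Neat1 also reached 2 without Malat1 in its local level (2.01), with all reads kept (2.08) and with a local level free of annotated genes (2.26). With the mean of the genome as the background all 4 did, at 2.88 (Malat1), 3.5 (Neat1), 4.94 (Gas5) and 2.57 (Snhg1), as did 52.7% of all genes. Against the local level, none reached 2 in Nsl1 downstream, where 5.59% did, or over the body, where 1.34% did. In the 2 kb past the end Msl1 reached 2 at 0 of 4 genes (5.97% of all) and Nsl1 at 1 of 4, Malat1. The ratio of Msl1 to Nsl1 was at least 2 times the median of all genes at 4 of 4 downstream (11.7% of all genes), at 3 of 4 over the body (3.81%) and at 2 of 4 within 500 bases of the TSS (12.6%). Since the genes were chosen with these levels known, nothing is read from the counts.

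**Figure D4:**
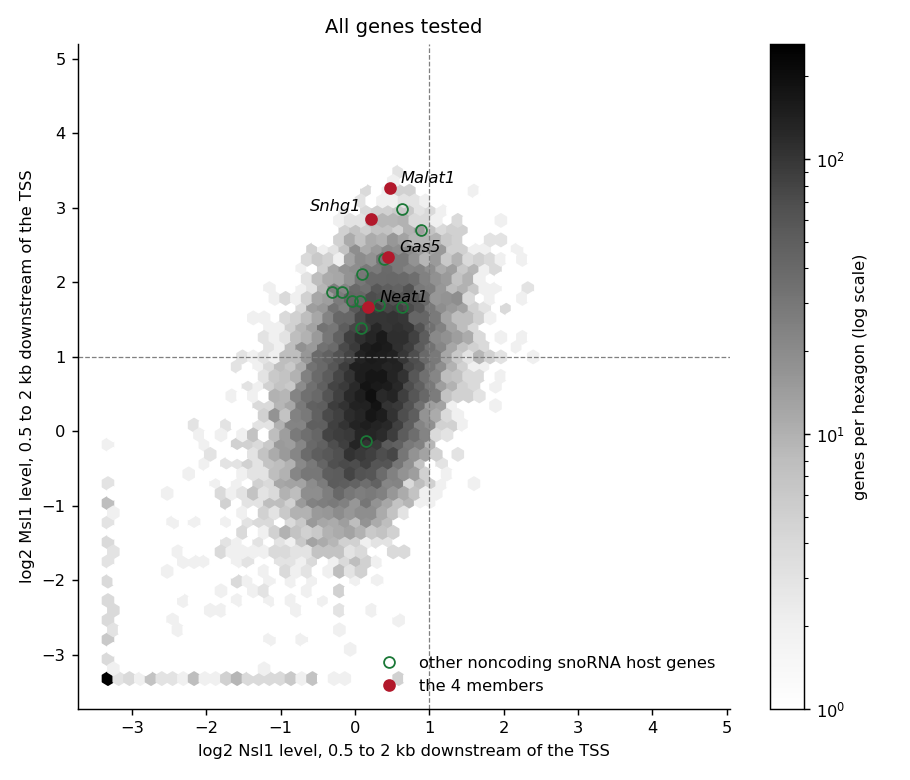
Msl1 against Nsl1 level, both as log2 of the level 500 to 2000 bases downstream of the TSS, for 22285 genes. Grey hexagons count genes on a log scale, red points are the 4 members, green rings are the other 12 noncoding snoRNA host genes tested, and dashed lines mark a level of 2. Levels under 0.1 are drawn at 0.1. The members lie high on the Msl1 axis and left of the Nsl1 line.

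Msl1 was also above the local level at most other noncoding snoRNA host genes. Of 20 listed, 17 were in the annotation and 14 were long enough to be tested. Msl1 reached 2 downstream at 13 of the 14 (34.1% of all genes), with a median of 3.65 against 1.52 over all genes. Over the body it did so at 11 of the 14 (7.48% of all genes, 16.3% of those of 2 to 8 kb), with a median of 3.51 against 1.1. Without Gas5 and Snhg1 the counts were 11 and 9 of 12. The highest levels downstream were those of Snhg17 (7.87, 6.50 to 9.44), Snhg1 and Snhg7 (6.50, 5.30 to 7.89). The lowest were those of Snhg18 (0.91, 0.37 to 1.87, from 7 reads), Snhg3 (2.61, 1.95 to 3.41) and Snhg12 (3.16, 2.48 to 3.97). Nsl1 reached 2 within 500 bases of the TSS at 10 of the 14 (42.4% of all genes), with a median of 2.54 against 1.75, and downstream at 0 of the 14 (5.59%), with a median of 1.14 against 1.16. Snhg1 stood lower in Nsl1 at the TSS than this median and Gas5 higher.

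Among the 295 tested genes of any type that hold an annotated snoRNA on their own strand, Msl1 reached 2 downstream at 194, or 65.8%, against 34.1% of all genes and 38.2% of protein-coding genes, with a median of 2.57. The highest were the translation factor gene Eif4a2 (15.6, 13.4 to 17.9), the ribosomal protein gene Rps12 (10.8, 8.93 to 13.0) and Odc1, which encodes ornithine decarboxylase (9.32, 7.60 to 11.3). Snhg1 and Gas5 thus stood below the top of the protein-coding hosts. The lowest were Gm17683 (0.10), 9430037G07Rik (0.21) and Tmem180 (0.33), with 1, 2 and 7 reads. Nsl1 reached 2 within 500 bases of the TSS at 200 of the 295, with a median of 2.78, against 42.4% and 1.75 over all genes.

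Other long noncoding RNA genes mostly had lower Msl1 levels than Malat1. Of 14 tested genes of a list of long noncoding RNAs without the 4 members, 7 reached 2 downstream (34.1% of all genes), with a median of 1.99, and 2 reached it over the body (7.48%). The highest were Firre (6.32, 4.13 to 9.26), the X inactivation gene Xist (4.47, 3.37 to 5.80) and Dleu2 (4.15, 3.13 to 5.40), and the lowest were Hotair (0.76), Rian (0.82) and the imprinted gene H19 (1.17). Tsix runs antisense over all of Xist, and Gm17300 over part of the snoRNA host Snhg3, so their reads cannot be told apart. Over all 3073 tested genes annotated as lincRNA or processed transcript, 13.4% reached 2 downstream, with a median of 1.13. The downstream interval of Malat1, 8.45 to 10.8, lay above the values of all 14 listed genes, though that of Firre overlaps it.

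Genes of paraspeckle and snoRNA particle proteins carried Msl1 as well. All 8 paraspeckle protein genes reached 2 downstream, with a median of 3.80, against 38.2% of the protein-coding genes tested and 34.1% of all, with medians of 1.64 and 1.52. Sfpq, which encodes a core paraspeckle protein that binds Neat1, was the highest at 11.8 (10.2 to 13.5), followed by Hnrnpk (6.42, 5.22 to 7.81) and Cpsf6 (4.15, 3.12 to 5.41). The lowest were Nudt21 (2.31, 1.62 to 3.18), Nono (3.41, 2.39 to 4.72) and Pspc1 (3.51, 2.71 to 4.48). Neat1 itself, at 3.16, or 4.12 without Malat1 in its local level, lay within the range of these 8. All 7 tested core protein genes of the snoRNA particles reached 2 downstream, with a median of 5.14, beside the same shares. Fbl, Nop56, Nop58 and Nhp2l1 belong to the box C/D particles, the class of the Gas5 and Snhg1 snoRNAs, and Dkc1, Nhp2 and Gar1 to the box H/ACA particles, which carry another class. They ranged from Gar1 (3.16, 2.25 to 4.32), Nhp2 (3.25) and Nhp2l1 (3.65) to Nop58 (5.34), Fbl, the methyltransferase fibrillarin (6.31), and Nop56 (7.09, 5.84 to 8.52). Nsl1 reached 2 within 500 bases of the TSS at 7 of the 8 and 7 of the 7 genes, with medians of 2.42 and 4.24. Over all genes the share was 42.4% and the median 1.75.

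Around each locus few genes had as much Msl1. Among 11 tested genes with a TSS within 100 kb of that of Malat1, only Neat1 reached 2 downstream, against 34.1% of all genes, and the median was 1.23. The antisense gene Gm20417 lies inside Malat1, is 988 bases long and was not tested. From 500 bases to its end it held 45 reads (5.08), which cannot be told apart from those of Malat1. Around Neat1, 1 of 7 (Malat1) reached 2. Around Gas5, 3 of 5 did, Cenpl, a kinetochore protein gene, being the highest at 3.02 (2.25 to 3.97), with Zbtb37 at 2.60 (1.88 to 3.51). Around Snhg1, 2 of 10 did, Hnrnpul2 being the highest at 3.59 (2.97 to 4.30), while Slc3a2 had 1.67 (1.19 to 2.27). At each of these loci the highest Msl1 level downstream was that of the noncoding member, Neat1 apart.

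The Nsl1 levels followed another order. Within 500 bases of the TSS the highest neighbour was Sssca1 at the Malat1 locus (6.52, 5.38 to 7.82), Frmd8 at the Neat1 locus (2.77, 2.02 to 3.71), Klhl20, an adaptor of a ubiquitin ligase, at the Gas5 locus (18.1, 15.8 to 20.6) and Wdr74, a ribosome assembly factor, at the Snhg1 locus (8.58, 7.21 to 10.1). Each of these was above the noncoding member of its locus in value, and the intervals of Frmd8 and Neat1 overlapped. Nsl1 reached 2 at 3 of 11, 3 of 7, 4 of 5 and 7 of 10 of the tested neighbours of Malat1, Neat1, Gas5 and Snhg1, against 42.4% of all genes.

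Genes were ranked by how alike their levels were to those of each member, as the distance of log2 levels over 5 windows in both libraries (10 values, 1 read added per window). The nearest to Malat1 were Mcl1, which encodes an anti-apoptotic protein (distance 1.25), 1700017B05Rik (1.28) and the stress-induced gene Gadd45b (1.32). Snhg1 was as near to Malat1 as the third of these, at 1.33. The nearest to Snhg1 were Gadd45b (0.85), Wdr82 (0.88) and the ribosomal protein gene Rpl12 (0.94). The nearest to Neat1 were Gm17325 (0.52), Slc25a15 (0.53) and 2810417H13Rik (0.59), and the nearest to Gas5 were Nrg1 (0.91), Phf16 (1.22) and the heat shock gene Dnajb1 (1.33). Neat1 was farther from each other member, at 2.56 to 3.09, than from these genes. The 4 genes therefore did not form 1 profile. Malat1 and Snhg1 were close, at 1.33, and Gas5 lay 1.94 from Snhg1 and 2.65 from Malat1. The Neat1 distances rest on a local level that contains Malat1. Without Malat1 in it, the Msl1 level of Neat1 downstream was 4.12 and not 3.16. The distances were not recomputed, so whether Neat1 lay farther from Malat1 and Snhg1 than Gas5 did is not read.

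Properties of the reads that could bear on these levels are given here, and their part in the result was not tested. Of all reads in the genes, 19.8% of the Msl1 reads in Malat1, 20.4% in Snhg1, 18.3% in Gas5 and 16.7% in Neat1 repeated a position, against 18.3% in the library. The plus strand held 51.1% of the Msl1 reads in Malat1 and in Gas5, 53.6% in Neat1 and 47.0% in Snhg1, so neither strand held much more of the reads than the other. Words of 36 bases occurred once in mm9 at 98.3% to 99.7% of the positions in the 4 genes. In the 2 kb past the end this share was 85.9% at Malat1 and 79.3% at Snhg1, which lowers what could be counted there. Words of 36 bases have the length of the Nsl1 reads. For words of 50 bases, the length of the Msl1 reads, it was 90.05% and 84%. The share of G and C from 500 to 2000 bases downstream was 45.6% at Malat1, 55% at Neat1, 42.5% at Gas5 and 40.6% at Snhg1.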

How the data were processed

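Msl1 and Nsl1 were mapped by ChIP-seq in mESCs, 1 library each. The authors aligned single-end reads of 50 bases (Msl1) and 36 bases (Nsl1) to mm9, used unique reads, and deposited 1 line per read with its position and strand. The submitters' processing notes name CASAVA 1.8.2 and Bowtie 0.12.7. A score column in the deposited files reads 255 throughout and was not used. Of the nuclear reads, 18.3% (Msl1) and 4.56% (Nsl1) repeated a position and strand and were counted once, which can understate levels where true fragments coincide. Mitochondrial reads were left out.

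Each read was placed at the centre of its fragment, with the length taken from the cross-correlation of both strands on chromosomes 16 and 19 (217 bases for Msl1, 134 for Nsl1). Genes came from GENCODE M1 on mm9, another release than that of the study, with the TSS of the longest basic transcript. Genes of at least 2 kb with at least 1 local read per kb in both libraries were tested (22285). Ratios carry exact 95% intervals conditional on the sum of reads. The members, the lists and the comparisons were chosen with earlier results of these data known. Named genes were the members, genes at their TSSs, the 3 highest and 3 lowest of each list by Msl1 downstream, the highest neighbour per locus and library, and the 3 genes most like each member. List names that the annotation lacks were matched through older symbols; Snhg6, Snhg8, Snhg10, Kcnq1ot1, Terc, Rmrp and Rpph1 had no match. Snhg18 is annotated as the host Snord123. Counting was tested on simulated reads spread evenly along chromosome 19, with planted downstream levels. Of 50 genes planted at 2 in each library, 44% (Msl1) and 30% (Nsl1) reached 2. The threshold lies at the planted level, so a true level near 2 was often missed. The difference between the libraries was not tested. Of genes planted at 1, 0% reached 2 in either library, and of those planted at 4, 100% did. The simulated background was even, so these shares check the counting only. They do not give the share of false calls in the real libraries. The median level at a planted 1 was 0.98 for Msl1 and 0.84 for Nsl1. Python 3.11.15, numpy 2.4.6, pandas 2.3.3, scipy 1.17.1 and matplotlib 3.10.9 were used. The sequence around the TSS of Neat1 is not reported here.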

Additional observations from a re-analysis of the deposited data

How the results depend on the processing

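With 1 library per antibody no replicate could be left out. No paired analysis was possible because each group has 1 sample. Of 164 comparisons of 21 results with an alternative, 136 stayed within the main interval (counts and shares within 1.5 times) and 28 moved. No level fell under the local level. Some of the 136 could not move and say nothing about stability. The ratio of Msl1 to Nsl1 per distinct read does not use the local level, so another background leaves it unchanged. The outer TSS is the same as the main TSS at Malat1, Neat1 and Snhg1. Keeping all reads, leaving reads at their 5′ end, fragments of 200 bases, steps of 500 bases, no local minimum and protein-coding genes only moved none. With the mean of the genome as the background, the highest Msl1 steps were 39.4 (Malat1), 13.1 (Neat1) and 18.9 (Snhg1), Msl1 downstream was 22.9 (Malat1), 9.10 (Neat1), 7.18 (Gas5) and 15.7 (Snhg1), Nsl1 at the TSS was 2.88, 3.5, 4.94 and 2.57 in the same order, and 24.8% of genes reached 2 in Msl1 over the body. With a local level free of annotated genes, the highest steps were 35.5 (Malat1) and 8.47 (Neat1), Msl1 downstream was 20.7 (Malat1), 5.87 (Neat1) and 9.67 (Snhg1), and 17.0% of genes reached 2 over the body. With a local level from 5 to 50 kb, Msl1 downstream of Snhg1 was 6.14. Without Malat1 in its local level, Neat1 had 4.12. With a TSS window of 1000 bases on both sides, Nsl1 at Gas5 was 2.54, and with the outer TSS, chosen after seeing the data, Gas5 had 6.95 (Msl1) and 2.20 (Nsl1). Scaling by the local level gave Neat1 a ratio of 2.79. At a level of at least 3, the shares of all genes were 14.4% (Msl1 downstream), 2.01% (Msl1 body) and 24.6% (Nsl1 TSS), and 123 snoRNA hosts were called, since the threshold is stricter. The cause of the other changes was not tested. Depth limits single steps most: a local level of 1 is 3 to 6 reads per step.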
